A study of Mus musculus with 6 samples.

Results

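A set of 10 lymphocyte genes was followed in 6 tumors of mice that carried LLC (Lewis lung carcinoma) cells, a lung cancer line that grows when transplanted into mice. They are the T cell receptor chains Cd3d, Cd3e and Cd3g, the coreceptor gene Cd8a, the granule genes Nkg7, Gzma, Gzmb and Prf1, and the lectin receptor genes Klrb1b and Klrk1. They were chosen by symbol, with earlier results of these data known, and make up 10 of the 21899 genes listed in the deposited table. All 10 were above 0 in every sample. Only Cd3e lay under a mean of 1 FPKM (0.445), so that 9 of the 10 passed the filter on low values, and Klrk1 passed it narrowly at 1.06. FPKM divides the reads on a gene by the length of its exons and by all reads counted in the sample, so that levels of different genes can be compared.

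The samples were RNA sequencing libraries of tumors from male C57BL/6 mice, which have intact immune systems and had been given luciferase-labelled LLC cells under the skin. The Laser group received saline and irradiation, the PC-La group was injected with the photosensitizer phycocyanin (PC) and irradiated, and the SePC-La tumors were given phycocyanin enriched in selenium and irradiated, with 2 samples in each group. The labels give a 620 nm laser for 10 min, 4 h after an injection repeated every 5 days, and the methods give another wavelength and interval. No untreated tumor was among the samples, so that irradiation is common to all 3 groups. The labels do not say whether the 2 samples of a group came from separate mice, and p-values measure the spread between these samples only.

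T cells recognize peptides through a receptor whose signal is carried by the CD3 chains, and CD8 marks the cytotoxic branch. Cytotoxic T cells and natural killer (NK) cells kill by releasing granules in which perforin opens the way for granzymes, proteases that trigger death of the target. NK cells have no CD3 receptor complex at their surface and weigh activating against inhibitory receptors, many of them lectin-like proteins encoded together in the NK gene complex. The study asked how selenium changes the response of tumors to phycocyanin phototherapy, and these genes report on the lymphocyte side of that response. In whole tumor, fewer cells of a type and less RNA per cell cannot be told apart.

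Positions follow GENCODE M21 on GRCm38, whose exon lengths turned the values into whole reads, while the submitters' processing notes name the build mm9. The 3 CD3 genes lie side by side on chromosome 9, Cd3g from 44969572 to 44980431, Cd3d from 44981786 to 44987339 and Cd3e from 44998740 to 45009627. Cd3g and Cd3d are 1354 bases apart and point away from each other. Klrb1b (128813706 to 128826331) and Klrk1 (129610323 to 129623864) lie within the NK gene complex on chromosome 6, which also carries Cd8a farther off, from 71373427 to 71379173. Nkg7 is on chromosome 7 (43437073 to 43438249), Prf1 on chromosome 10 (61297833 to 61304680), Gzma on chromosome 13 (113093825 to 113100981) and Gzmb on chromosome 14 (56258838 to 56262260). The exons of Klrb1b share 599 bases with the annotated gene Gm44511 on the same strand, which was listed at 0 in all samples, and those of Cd3e share 135 bases with a gene on the opposite strand. Gzmb and Klrb1b belong to families of similar neighbouring genes, and reads could have been split between copies in the authors' counting.

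The start regions of the lymphocyte genes were read from RefSeq (GRCm38.p6), which held all 10, as 300 bases from 250 before to 50 after the annotated start. They are shown for Klrb1b, the 1 gene of the 10 at the criterion used here, and for 3 granule genes that were higher in both PC-La samples than in Laser without reaching it. Capitals mark the letters TGTGGT or their reverse complement ACCACA, the core bound by RUNX factors, which are active in cytotoxic lymphocytes.
Klrb1b, chr6:128826266-128826565, minus strand: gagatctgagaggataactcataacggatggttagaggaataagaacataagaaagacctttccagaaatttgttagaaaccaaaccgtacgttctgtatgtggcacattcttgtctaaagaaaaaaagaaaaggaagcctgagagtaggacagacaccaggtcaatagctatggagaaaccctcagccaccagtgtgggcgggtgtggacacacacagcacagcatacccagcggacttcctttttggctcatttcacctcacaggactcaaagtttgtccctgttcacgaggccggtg
Nkg7, chr7:43436888-43437187, plus strand: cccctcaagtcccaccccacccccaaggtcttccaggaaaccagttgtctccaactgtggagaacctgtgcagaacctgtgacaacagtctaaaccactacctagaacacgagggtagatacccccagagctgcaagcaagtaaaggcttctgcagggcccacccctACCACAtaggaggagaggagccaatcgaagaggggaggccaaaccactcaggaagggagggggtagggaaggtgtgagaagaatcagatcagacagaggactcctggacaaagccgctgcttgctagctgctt
Gzmb, chr14:56262285-56262584, minus strand: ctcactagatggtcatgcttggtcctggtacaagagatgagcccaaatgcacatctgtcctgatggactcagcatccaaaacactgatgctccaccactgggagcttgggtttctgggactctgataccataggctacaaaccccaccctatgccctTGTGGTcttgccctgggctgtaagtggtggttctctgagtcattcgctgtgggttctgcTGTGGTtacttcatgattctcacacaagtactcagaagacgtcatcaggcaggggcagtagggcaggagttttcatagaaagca
Prf1, chr10:61297586-61297885, plus strand: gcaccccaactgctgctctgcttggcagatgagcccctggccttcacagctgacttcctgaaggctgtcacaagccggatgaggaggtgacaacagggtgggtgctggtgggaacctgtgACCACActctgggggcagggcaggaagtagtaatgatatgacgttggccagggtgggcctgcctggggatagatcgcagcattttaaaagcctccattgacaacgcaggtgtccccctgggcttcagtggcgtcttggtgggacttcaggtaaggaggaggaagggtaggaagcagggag

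The RUNX letters stood in the windows of 5 of the 10 genes, the 3 granule genes shown, Gzma and Klrk1, and in 16.7% of all 32544 distinct windows of this length. The T-box letters GGTGTGA stood in 1 member window (4.0% of all), the letters TTCNNNGAA bound by STAT factors in 3 (8.3%), and the E-box CAGCTG in 3 (16.4%), each searched on both strands. The windows of Klrb1b and Cd3e held none of these letters. RefSeq gives Klrb1b a further start 7 bases away, and its start of Gzmb lies upstream of the GENCODE gene.

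The recovered depth was 14447793 to 17649490 reads per sample. At that depth the CD3 genes rested on 11 to 103 reads per sample, Cd8a, Klrb1b and Klrk1 on 29 to 196, and the granule genes on 38 to 652. Differences were tested by limma after adding 1 FPKM and taking log2, which makes the changes of low genes look smaller, in 1 fit of all 6 samples and of the 10853 genes whose mean reached 1 FPKM. The fold change of Cd3e comes from the same fit without the filter, on 16808 genes. The criterion was that of the study's methods, a log2 fold change beyond 1 in either direction with p under 0.05 before adjustment. No gene of the table had a Benjamini-Hochberg adjusted p under 0.05 from limma in any comparison, and unadjusted p-values under 0.05 were reached by 5.78% of genes for PC-La against Laser, 12.1% for SePC-La against Laser and 24.3% for SePC-La against PC-La.

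The receptor chains of T cells differed more between the samples of the Laser and SePC-La groups than between the groups. Cd3d, which encodes the δ chain of CD3, had 1.75 and 0.468 FPKM under Laser, 2.12 and 1.25 under PC-La, and 0.458 and 1.86 under SePC-La, always in the order of replicates 1 and 2. Cd3e, the ε chain, had 0.530 and 0.194 FPKM under Laser, 0.565 and 0.606 under PC-La, and 0.187 and 0.590 under SePC-La. Cd3g, the γ chain, had 1.56 and 0.451 FPKM under Laser, 2.02 and 1.59 under PC-La, and 0.656 and 1.80 under SePC-La. In all 3 genes the low samples were Laser replicate 2 and SePC-La replicate 1, and the other 4 lay above them. Both PC-La samples were above both Laser samples for Cd3e and Cd3g, narrowly in each case, and not for Cd3d. Summed over the 3 chains the level was 3.45 to 4.70 FPKM in those 4 samples and 1.11 in Laser replicate 2, with SePC-La replicate 1 the next lowest.

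None of the CD3 genes met the criterion in any comparison. Cd3g had the largest difference of the 3 for PC-La against Laser, 0.54 on the log2 scale (95% interval -0.33 to 1.41, adjusted p = 0.758 from limma). For SePC-La against Laser the differences were 0.02 for Cd3d, 0.02 for Cd3e and 0.16 for Cd3g, with intervals that reached from -1.04 to 1.09 for Cd3d. These intervals leave room for changes in either direction. Without Laser replicate 2 the difference of Cd3d between PC-La and Laser was -0.06.

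Cd8a, the coreceptor chain of cytotoxic T cells, followed the CD3 genes. Its FPKM was 2.97 and 1.31 under Laser, 3.15 and 2.74 under PC-La, and 1.12 and 2.74 under SePC-La, with the same 2 samples low and the groups overlapping in every comparison. Relative to Laser the difference was 0.38 for PC-La (adjusted p = 0.787 from limma) and -0.10 for SePC-La (adjusted p = 0.917), each with a standard error of 0.35. Cd8b1, its partner chain, overlapped between all groups too, with 3.52 and 1.53 FPKM under Laser, 3.80 and 2.12 under PC-La, and 1.73 and 4.60 under SePC-La.

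**Figure D1:**
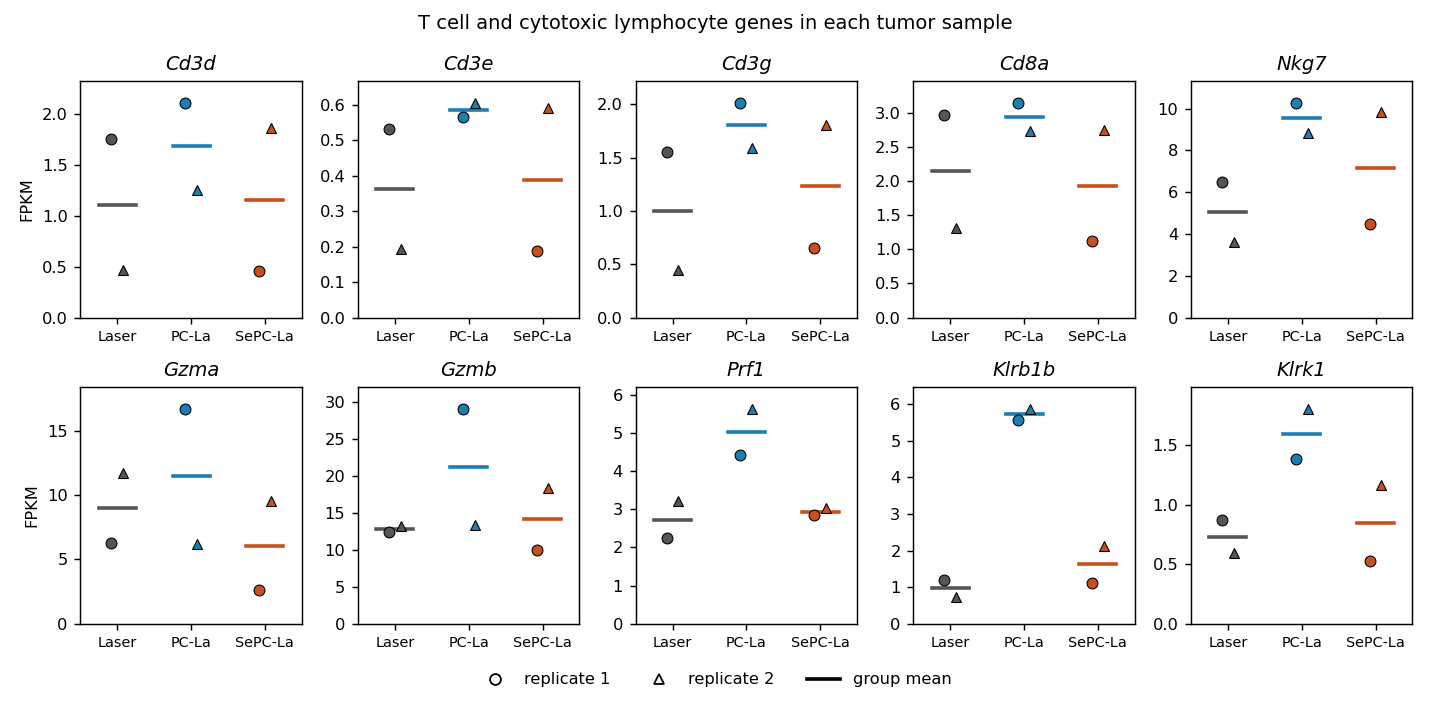
FPKM of the 10 genes (vertical axes, each from 0) by group, with a circle for replicate 1, a triangle for replicate 2 and a bar at the group mean. Klrb1b stands at 5.57 and 5.88 in PC-La and at 2.13 or less elsewhere, whereas the CD3 genes and Cd8a are low in Laser replicate 2 and SePC-La replicate 1.

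The granule genes were more abundant than the T cell chains and less uniform among themselves. Nkg7, a granule membrane protein of NK and cytotoxic T cells, had 6.47 and 3.60 FPKM under Laser, 10.3 and 8.85 under PC-La, and 4.47 and 9.84 under SePC-La. Both PC-La samples lay above both Laser samples, and the SePC-La samples spanned nearly the whole range. The difference of PC-La from Laser was 0.85 (95% interval -0.08 to 1.78, adjusted p = 0.753 from limma). It met the criterion at 1.20 once Laser replicate 1 was left out.

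Gzma and Gzmb encode granzymes A and B, and their values were governed by single samples. Gzma had 6.26 and 11.7 FPKM under Laser, 16.7 and 6.18 under PC-La, and 2.61 and 9.51 under SePC-La, so that the 2 samples of each group lay farther apart than any pair of group means. Gzmb had 12.4 and 13.2 FPKM under Laser, 29.1 and 13.3 under PC-La, and 9.93 and 18.4 under SePC-La. Its PC-La samples were both above Laser, replicate 2 by a narrow margin (13.3 against 13.2). Gzmb differed by 0.59 between PC-La and Laser (standard error 0.42; limma adjusted p = 0.762), and by 0.06 once PC-La replicate 1 was left out. Once PC-La replicate 2 was left out, Gzmb met the criterion at 1.13 against Laser and at -1.05 for SePC-La against PC-La.

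Prf1, which encodes perforin, was the steadier of these genes. It had 2.24 and 3.22 FPKM under Laser, 4.43 and 5.64 under PC-La, and 2.84 and 3.04 under SePC-La. Both PC-La samples lay above all 4 other samples. PC-La differed from Laser by 0.70 on the log2 scale (95% interval 0.25 to 1.15, unadjusted p = 0.00873, adjusted p = 0.684 from limma), which is under the fold change of the criterion. SePC-La differed from PC-La by -0.61 (95% interval -1.06 to -0.16, unadjusted p = 0.0161, adjusted p = 0.146 from limma). SePC-La and Laser differed by 0.09, with an interval from -0.36 to 0.54.

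Klrb1b and Klrk1 encode receptors of the NK gene complex, the inhibitory NKR-P1B and the activating NKG2D, which cytotoxic T cells also carry. Klrb1b had 1.20 and 0.738 FPKM under Laser, 5.57 and 5.88 under PC-La, and 1.12 and 2.13 under SePC-La, from 42 and 29 reads under Laser, 194 and 196 under PC-La and 36 and 83 under SePC-La. Both PC-La samples stood above every other sample, and the Laser and SePC-La samples overlapped. The mean was 0.968 ± 0.327 FPKM under Laser, 5.73 ± 0.217 under PC-La and 1.63 ± 0.718 under SePC-La (SD, each n = 2), a ratio to the Laser mean of 5.91 in PC-La and 1.68 in SePC-La.

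Klrb1b was the only one of the 10 genes at the criterion. It was higher in PC-La than in Laser by 1.78 on the log2 scale (95% interval 1.22 to 2.35, unadjusted p = 0.0002, adjusted p = 0.406 by limma), and by 1.61 to 1.95 when each sample in turn was left out. SePC-La was lower than PC-La by a log2 difference of -1.38 (95% interval -1.95 to -0.82, unadjusted p = 0.000843, adjusted p = 0.122 by limma), and -1.67 to -1.10 when each sample in turn was left out. Against Laser, SePC-La differed by 0.40 (95% interval -0.17 to 0.96, adjusted p = 0.511 from limma). The groups SePC-La and Laser overlapped, and the PC-La samples enter both of the larger differences, which are therefore not independent of each other.

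Klrk1 stood at a lower level, with 0.868 and 0.592 FPKM under Laser, 1.38 and 1.80 under PC-La, and 0.530 and 1.16 under SePC-La. Both PC-La samples were above the other 4. The difference from Laser was 0.58 in PC-La (95% interval -0.002 to 1.17, unadjusted p = 0.0507, adjusted p = 0.753 from limma) and 0.08 in SePC-La. Low genes are shrunk by the pseudocount, and on the recovered reads with limma's voom the difference of Klrk1 in PC-La was 1.15 (unadjusted p = 0.0262) and met the criterion.

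Counted over the 10 genes, 7 had both PC-La samples above both Laser samples and 3 overlapped, where 20% of all genes above 0 lay higher in PC-La in this way and 17.6% lower. Of the 9 genes past the filter 1 met the criterion higher in PC-La, where 0.866% of genes did so (0.424% lower). All 10 log2 differences were above 0, with a median of 0.56, against 51.6% of all genes and a median of 0.003 among them. Without Laser replicate 2 that count was 8 and the median 0.48, and without PC-La replicate 1 they were 9 and 0.37. An unadjusted p under 0.05 was reached by 2 of the 9 genes, Prf1 and Klrb1b, where 5.78% of all genes tested reached it.

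For SePC-La against Laser, all 10 genes overlapped between the groups, where 12.8% of all genes lay higher in both samples and 21.4% lower. None of the 9 met the criterion (background 0.544% higher and 0.138% lower), and none had an unadjusted p under 0.05 (background 12.1%). The median difference was 0.08, with 8 of 10 above 0 against 39.9% of all genes. It was 0.41 without SePC-La replicate 1, -0.20 without SePC-La replicate 2, with 10 and 2 of the 10 differences above 0, and -0.10 without Laser replicate 2, so that its direction rests on single samples. Of the single genes, Gzma had the widest interval, from -2.36 to 1.08.

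For SePC-La against PC-La, 3 of the 10 genes (Prf1, Klrb1b and Klrk1) lay lower in both SePC-La samples and 7 overlapped, where 34.6% of all genes lay lower and 20.3% higher. The share of the 10 genes is thus near the background. Of the 9 genes past the filter 1 met the criterion lower in SePC-La, where 1.8% of genes did so (1.18% higher). The median difference was -0.49 with none of the 10 above 0, against 39.4% of all genes, and -0.09 without SePC-La replicate 1, with 4 above 0.

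**Figure D2:**
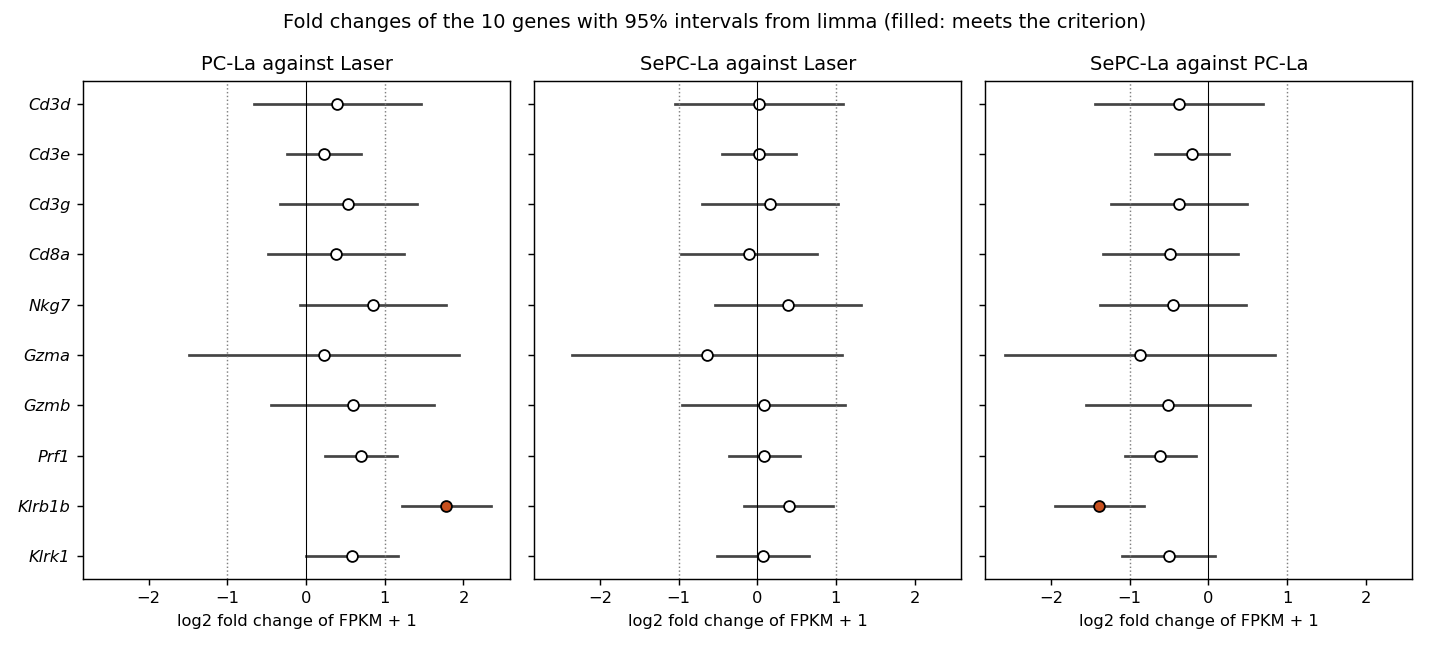
Log2 fold changes of FPKM + 1 for the 10 genes (rows) in the 3 comparisons, as points with 95% intervals from limma, and dotted lines at a change of 1 in either direction. Filled points meet the criterion, which Klrb1b does at 1.78 for PC-La against Laser and at -1.38 for SePC-La against PC-La; all 10 points lie above 0 in the former comparison and below 0 in the latter.

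The level of Klrb1b was also set against Ptprc, which encodes the leukocyte marker CD45. Ptprc itself had 7.66 and 3.92 FPKM under Laser, 8.86 and 10.8 under PC-La, and 5.75 and 6.81 under SePC-La, both PC-La samples above the rest. Per FPKM of Ptprc, Klrb1b stood at 0.157 and 0.188 under Laser, 0.629 and 0.546 under PC-La, and 0.194 and 0.313 under SePC-La, so that PC-La remained above the other samples. Prf1 per Ptprc was 0.292 and 0.822 under Laser, 0.500 and 0.524 under PC-La, and 0.494 and 0.446 under SePC-La, and its PC-La samples no longer stood apart. Laser replicate 2, at 0.822, had the lowest Ptprc level of the 6 samples (3.92 FPKM). No other general leukocyte marker was tried in place of Ptprc, and how far this outcome depends on the divisor was not tested. Klrk1 per Ptprc ranged from 0.0921 to 0.171, PC-La lying narrowly above Laser and inside the range of SePC-La. Set against the summed CD3 chains, Klrb1b was 0.312 and 0.662 under Laser, 1.19 and 1.70 under PC-La, and 0.860 and 0.501 under SePC-La, and Gzma reached 10.5 in Laser replicate 2 but 1.63 to 3.56 in the other 5 samples. Laser replicate 2 combined low T cell chains with the second highest Gzma level of the 6 samples.

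Other receptors of NK cells were taken from a list of 16, all above 0 in at least 1 sample and 6 of them past the filter. Against Laser, 11 of the 16 were higher in both PC-La samples, none was lower and 5 overlapped, where 20% of all genes lay higher and 17.6% lower, and none met the criterion. Ncr1, the NK receptor NKp46, had 0.372 and 0.147 FPKM under Laser, 1.58 and 0.868 under PC-La, and 0.0899 and 0.372 under SePC-La. Klra7, a Ly49 receptor, had 0.754 and 0.985 under Laser, 2.07 and 2.43 under PC-La, and 0.602 and 0.906 under SePC-La, a difference of 0.80 for PC-La against Laser (unadjusted p = 0.00559, adjusted p = 0.642 from limma). Klrb1c, the NK1.1 antigen of this strain and a close relative of Klrb1b, had 0.279 and 0.230 under Laser, 0.627 and 0.587 under PC-La, and 0.0468 and 0.193 under SePC-La. The Klr genes hold similar copies whose reads are uncertain.

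Against Laser, the median difference of the 16 receptors was 0.39 for PC-La and -0.09 for SePC-La, and 15 of 16 were above 0 in PC-La (13 without Laser replicate 2, with a median of 0.21). For SePC-La against Laser, 1 was higher in both samples, 2 were lower and 13 overlapped (12.8% and 21.4% of all genes were higher and lower). Its median turned on single samples, at 0.09 without SePC-La replicate 1, 0.06 without Laser replicate 1 and -0.26 without SePC-La replicate 2, with 11, 9 and 1 of the 16 above 0 in place of 5. Between SePC-La and PC-La 13 were lower in both SePC-La samples and none higher, where 34.6% of all genes lay lower and 20.3% higher, and the median was -0.49 with 2 of 16 above 0, against 39.4% of all genes. Il2rb encodes the shared β chain of the receptors for interleukins 2 and 15. It had 6.55 and 5.72 FPKM under PC-La against 1.40 and 4.05 under SePC-La (log2 difference -1.03, adjusted p = 0.196 from limma). Il2rb met the criterion in this comparison, as 1 of the 6 receptors past the filter, where 1.8% of all genes met it lower. Without PC-La replicate 1, PC-La replicate 2 or SePC-La replicate 1 it no longer did, and its smallest difference then was -0.50.

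The list for the T cell receptor complex and its proximal signalling held 12 genes of the table, of which Ptprcap was listed at 0 in all samples. Of the other 11, 6 were higher in both PC-La samples than in Laser (20% of all genes), none was lower (17.6%) and 5 overlapped. The filter was passed by 6 of the 11, and none of these met the criterion (0.866% of all genes higher, 0.424% lower). Lck, the kinase that starts the signal, had 2.65 and 0.948 FPKM under Laser, 3.36 and 3.15 under PC-La, and 0.685 and 2.60 under SePC-La, with the same 2 samples low as for the CD3 genes. The median difference in PC-La was 0.26 with all 11 above 0, and 0.02 with 6 of 11 above 0 without Laser replicate 2. For SePC-La all 11 overlapped with Laser, with a median of 0.009 that was -0.20 without SePC-La replicate 2 and 0.22 without SePC-La replicate 1.

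**Figure D3:**
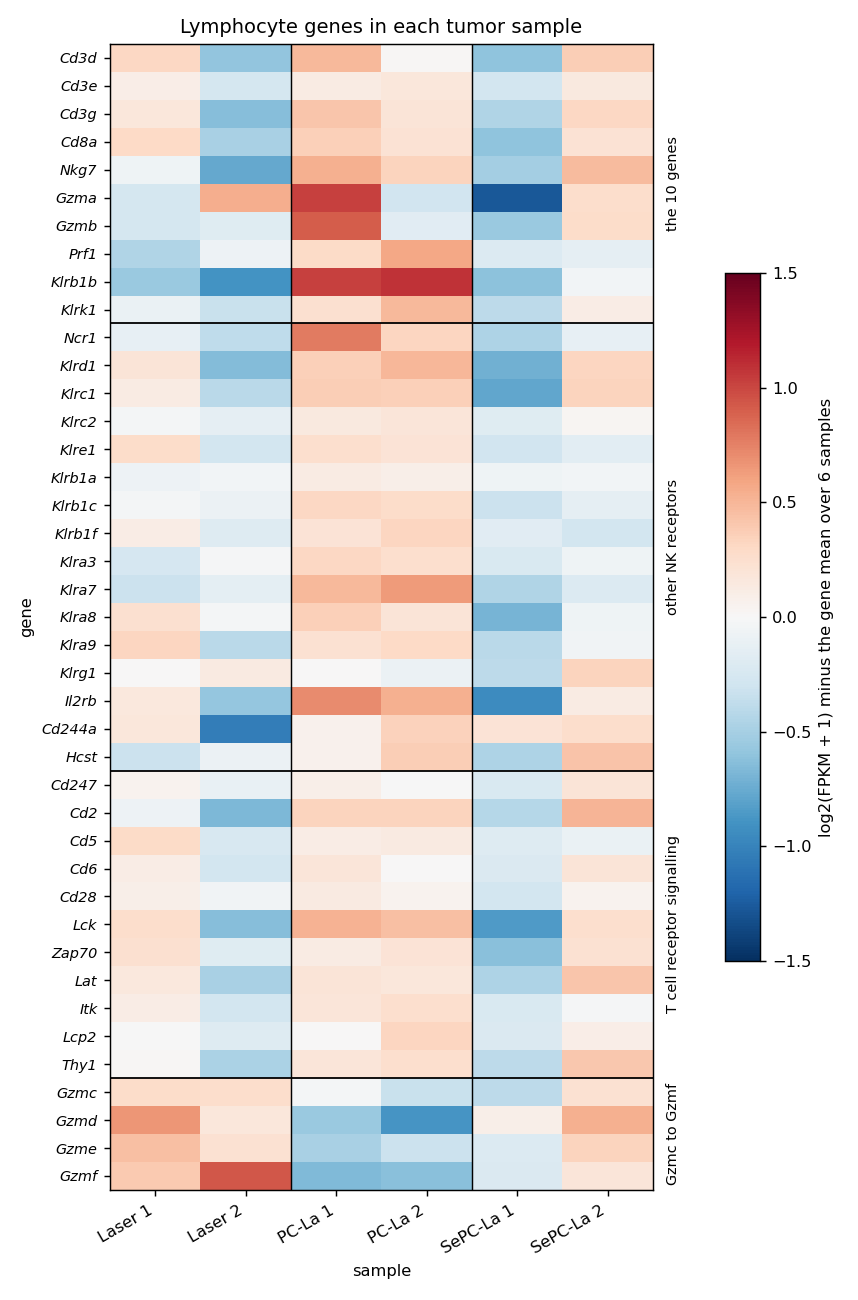
Each gene's log2(FPKM + 1) minus its mean over the 6 samples (color, blue below and red above the mean) for the 10 genes, other NK receptors, T cell receptor signalling genes and Gzmc to Gzmf (rows, separated by lines) in the 6 samples (columns). The NK receptors are red in both PC-La samples with few exceptions, the T cell genes are blue in Laser replicate 2 and SePC-La replicate 1, and Gzmd and Gzmf are blue in PC-La, where they met the criterion at -1.13 and -1.31.

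Gzmc to Gzmf, the granzyme genes encoded near Gzmb, were lower in both PC-La samples than in both Laser samples. Gzmf had 4.57 and 7.09 FPKM under Laser, 1.67 and 1.75 under PC-La, and 2.64 and 3.80 under SePC-La, and was lower in PC-La by a log2 difference of -1.31 (standard error 0.23, unadjusted p = 0.00100, adjusted p = 0.419 from limma). Gzmd had 7.79 and 5.23 under Laser, 2.79 and 2.01 under PC-La, and 4.88 and 7.01 under SePC-La, with a difference of -1.13 for PC-La against Laser (standard error 0.24, adjusted p = 0.51 from limma) and 1.02 for SePC-La against PC-La (adjusted p = 0.126). Gzmf stayed at the criterion with each sample left out, while Gzmd against Laser fell short of it without Laser replicate 1 or PC-La replicate 2 (smallest difference -0.88), and against PC-La without PC-La replicate 2 or SePC-La replicate 2 (0.80). Gzmc and Gzme had differences of -0.45 and -0.74 and did not meet the criterion. These are similar neighbouring genes, and reads could have been split or lost between them, which was not tested.

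Of the 17 further granule and effector genes, which include these 4, 8 were higher in both PC-La samples than in Laser, 5 were lower and 4 overlapped, against 20% and 17.6% of all genes higher and lower. At the criterion 2 were lower, Gzmd and Gzmf (0.424% of all genes), and none was higher (0.866%). Xcl1, a chemokine of activated NK and CD8 T cells, had 0.122 and 0 FPKM under Laser, 0.734 and 1.28 under PC-La, and 0.265 and 0.110 under SePC-La. The mean of Xcl1 was 0.418 FPKM, so that it did not pass the filter and these values lie near the floor. Ifng, the cytokine interferon γ, lay between 0.737 and 0.973 FPKM in all 6 samples. Ccl5, a chemokine made by these cells and by others, had 7.16 and 2.89 FPKM under Laser, 16.4 and 9.54 under PC-La, and 5.84 and 13.1 under SePC-La, a difference of 1.27 in PC-La (unadjusted p = 0.0528, adjusted p = 0.753 from limma). For SePC-La against Laser 4 of the 17 were higher (12.8% of all genes), 2 lower (21.4%) and 11 overlapped, with none at the criterion. Against PC-La, 4 of the 17 were higher in both SePC-La samples (20.3% of all genes), 5 lower (34.6%) and 8 overlapped. Of the 13 past the filter, Gzmd alone met the criterion there, higher in SePC-La, as 1.18% of all genes did.

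Markers of T cell subset and state, 14 genes, included 2 that met the criterion higher in SePC-La than in PC-La, as 1.18% of all genes did. Tigit, an inhibitory receptor, had 6.99 and 9.80 FPKM under Laser, 4.87 and 3.64 under PC-La, and 16.6 and 10.8 under SePC-La, a log2 difference of 1.47 between SePC-La and PC-La (adjusted p = 0.122 from limma). Il7r, the interleukin 7 receptor, had 2.32 and 1.31 under Laser, 0.810 and 1.05 under PC-La, and 3.21 and 2.94 under SePC-La, a difference of 1.08 (adjusted p = 0.126). Tigit stayed at the criterion with each sample left out (1.18 to 1.76), and Il7r fell just under it without PC-La replicate 1 (0.99). Their order of samples was not that of the CD3 genes, which were low in SePC-La replicate 1. Cd4 had 0.103 to 0.928 FPKM and Foxp3, the factor of regulatory T cells, 0.0302 to 0.131. Against Laser, 2 of the 14 were higher and 3 lower in PC-La, where 20% and 17.6% of all genes were, and 3 were higher and none lower in SePC-La, where 12.8% and 21.4% were. Several of these shares lie near the background. The filter was passed by 10 of the 14, and none of these met the criterion against Laser.

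Ligands and attractants of these cells were measured in the same tumors. Clec2d, the ligand of the receptor encoded by Klrb1b, had 24.0 and 16.5 FPKM under Laser, 33.1 and 36.6 under PC-La, and 21.9 and 34.0 under SePC-La, with a difference of 0.78 in PC-La (unadjusted p = 0.0207, adjusted p = 0.753 from limma). Of the ligands of NKG2D, Raet1d lay between 6.84 and 8.89 FPKM in all samples, and Ulbp1 had 5.79 and 12.0 under Laser, 3.41 and 5.34 under PC-La and 5.99 and 5.66 under SePC-La. Of the 6 ligands 4 passed the filter, and none of these met the criterion in any comparison. Of 6 chemokines and receptors that draw lymphocytes, 3 met it higher in PC-La than in Laser, Cxcl9, Cxcl10 and Cxcl16, as 0.866% of all genes did. Cxcl9, a ligand of the receptor Cxcr3, had 32.7 and 42.6 FPKM under Laser, 77.8 and 129 under PC-La, and 44.6 and 65.5 under SePC-La (log2 difference 1.40 in PC-La, adjusted p = 0.547 from limma). It stayed at the criterion with each sample left out, whereas Cxcl10 and Cxcl16 were lost without Laser replicate 2 or PC-La replicate 2, and Cxcl16 also without PC-La replicate 1. Cxcr3 itself overlapped, with 1.73 and 0.491 under Laser, 1.55 and 1.00 under PC-La, and 0.120 and 1.75 under SePC-La. Of 9 transcription factors of lymphocytes 4 passed the filter, and none of these met the criterion in any comparison. Over all genes tested, 0.138% to 1.8% met it in a given direction and comparison.

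The samples also differed in the cells that surround lymphocytes. The summed FPKM of 7 mast cell and basophil markers was 152 and 2.79 under Laser, 28.4 and 14.3 under PC-La, and 1.05 and 122 under SePC-La, lowest in the same 2 samples as the CD3 genes. Mast cells can express granzyme B, and the part of these cells in the values was not tested. The sum of 5 fibroblast markers was 941 and 248 under Laser, 1299 and 1170 under PC-La, and 95.3 and 531 under SePC-La, also lowest in those 2 samples. Markers of skeletal muscle summed to 19.0 and 124 in Laser and to 1.48 to 5.90 in the other 4 samples, and all 5 were lower in both samples of each phycocyanin group than in Laser, where 17.6% of all genes were lower in PC-La and 21.4% in SePC-La. All 5 met the criterion in both comparisons (0.424% and 0.138% of all genes), with median log2 differences of -2.69 and -2.58. The skeletal actin gene Acta1 had differences of -3.90 and -3.66, and the myosin genes Mylpf and Myh4 had -2.33 and -2.69 for PC-La, and for SePC-La -1.80 and -2.58. Without Laser replicate 2 the medians were -1.46 and -1.40. With each sample left out, the calls of Mylpf in PC-La and of Acta1 in SePC-La were kept each time, and the other 8 of these 10 calls were lost at least once. All 5 general leukocyte markers were higher in both PC-La samples than in Laser, as 20% of all genes were, Cd53 only narrowly (log2 difference 0.08). None of the 5 met the criterion, where 0.866% of all genes met it higher. What part these differences have in the lymphocyte values was not tested.

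Other marker lists were recorded beside them. Macrophage markers summed to 641 and 686 FPKM under Laser, 881 and 936 under PC-La, and 372 and 708 under SePC-La, and neutrophil markers to 148 and 31.9, 144 and 76.8, and 330 and 434 in the same order. The macrophage sum was carried mostly by C1qa, C1qb and C1qc, with means of 250, 230 and 97.3 FPKM. Against Laser, 5 of the 7 macrophage markers were higher in both PC-La samples (20% of all genes), 1 was lower (17.6%) and 1 overlapped. The lower gene was Mrc1, with 26.7 and 29.7 FPKM under Laser and 14.5 and 14.3 under PC-La. Of the 5 neutrophil markers, 3 met the criterion higher in SePC-La than in Laser (0.544% of all genes), S100a8 at 2.21, S100a9 at 2.71 and Retnlg at 2.20, and 2 higher than in PC-La (1.18%), S100a8 at 1.90 and Retnlg at 2.02. S100a8, a calcium-binding protein abundant in neutrophils, stayed at the criterion with each sample left out, whereas S100a9 lost its call when any 1 of the PC-La and SePC-La samples was left out. Retnlg lost its call against Laser without Laser replicate 1, Laser replicate 2 or SePC-La replicate 2, and against PC-La its call was kept in 1 of 6 cases, without PC-La replicate 1. Of the 7 macrophage markers, the complement genes C1qa and C1qc met the criterion lower in SePC-La than in PC-La (1.8% of all genes), both at -1.01. Neither did so without PC-La replicate 1, PC-La replicate 2 or SePC-La replicate 1. Of the 4 keratinocyte markers, 3 were listed at 0 in all samples. Dendritic cell markers summed to 5.81 to 11.6 FPKM and endothelial markers to 18.3 to 32.4. Only 1 of the 5 dendritic cell markers passed the filter, and all 5 endothelial markers did. None of these met the criterion in any comparison.

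**Figure D4:**
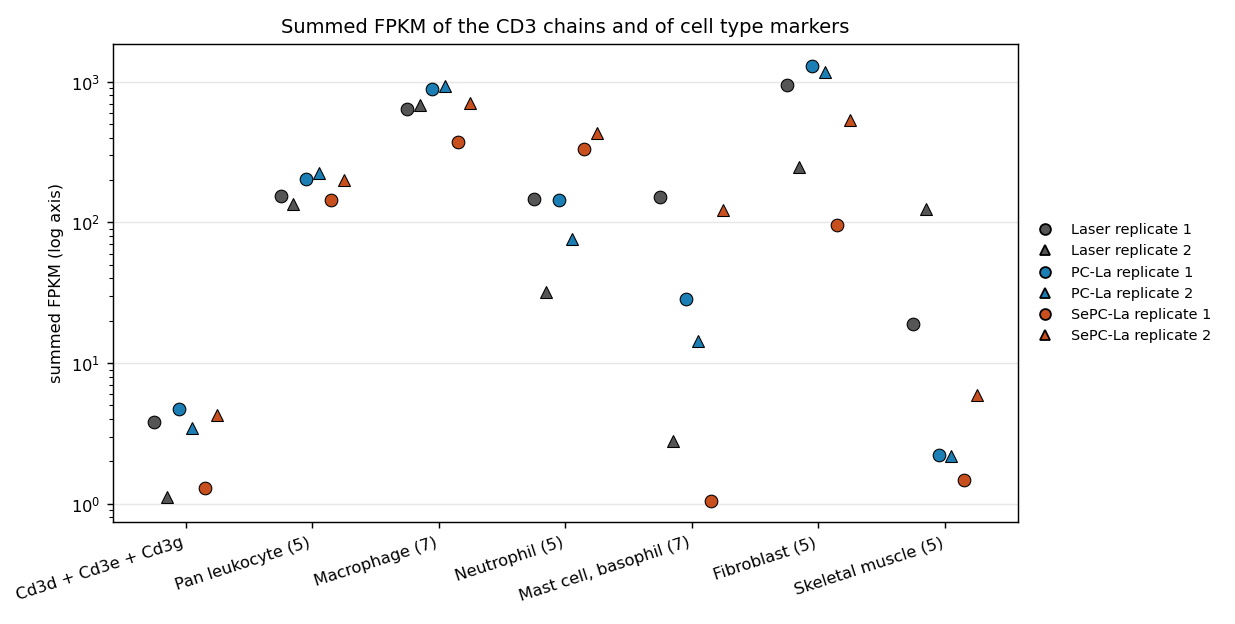
Summed FPKM (log axis) of the 3 CD3 chains and of marker lists of other cells, with the number of genes in brackets, in each of the 6 samples (color for the group, circle for replicate 1, triangle for replicate 2). The CD3 chains, mast cell and fibroblast markers are lowest in Laser replicate 2 and SePC-La replicate 1, and muscle markers are highest in Laser replicate 2 at 124.

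The genes whose pattern over the 6 samples was most like the mean of the 10 lymphocyte genes were ranked among the 10844 other genes past the filter. The 10 most alike were Ei24, Mcrip1, Trmt10b, Phlda3, Clba1, Pheta1, Prdx4, Qdpr, Cnp and Srxn1, with Pearson correlations from 0.981 to 0.994 over the same 6 libraries. None is a member of a lymphocyte list used here, but list genes under a mean of 1 FPKM were not ranked, and only 6 of the 16 NK receptors were. Why these genes share the pattern was not tested. The most alike, Ei24, had 11.4 and 9.95 FPKM under Laser, 15.0 and 13.6 under PC-La, and 8.76 and 12.6 under SePC-La.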

How the data were processed

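Tumor RNA of 6 samples, 2 per group, was sequenced. The authors aligned the reads and deposited 1 table of FPKM values for 21899 genes, of which 16808 were above 0. The submitters' processing notes name HISAT2 2.0.5, HTSeq 0.9.1, DESeq 1.30.0 and build mm9. Counting was not stated to use strand.

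Reads were recovered from the FPKM values with GENCODE M21 exon lengths: 97.8% of expressed genes came out whole in all samples (tolerance 0.02 reads), with totals of 14447793 to 17649490. The number of reads limits the precision of low genes.

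Differences were tested with limma 3.58.1 in R 4.3.3 (mean-variance trend, robust estimation, Benjamini-Hochberg adjustment) on log2(FPKM + 1) for 10853 genes with a mean of at least 1. The script was tested on simulated data. Alternatives were the pseudocount, scaling, filter, replicate block, voom on recovered reads and each sample left out. Figures used matplotlib 3.10.9.

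The members, the 17 other gene lists and the tests were chosen with earlier results of these data known. Named genes were the members, up to 3 genes of each other list with the smallest p among those at the criterion in each comparison, the 10 genes most alike in pattern, and defining markers of other cells; further list genes were named for their known role, after their values were seen. Of the list genes, 9 were not analysed here, and 1 of the lists is not reported here. Raw reads were not used.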

Additional observations from a re-analysis of the deposited data

How the results depend on the processing

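The count of lymphocyte genes at the criterion was 1 for PC-La against Laser, 0 for SePC-La against Laser and 1 for SePC-La against PC-La. It stayed so with a pseudocount of 0.1, other scalings, without the trend or the robust estimation, in a fit of the 4 compared samples and without the filter. For PC-La against Laser it was 2 with voom on recovered reads, where Klrk1 joined at 1.15, and 1 to 2 with each sample left out (Nkg7 at 1.20 without Laser replicate 1, Gzmb at 1.13 without PC-La replicate 2). For SePC-La against PC-La it was 1 to 2 with each sample left out (Gzmb at -1.05 without PC-La replicate 2). In both comparisons it was 0 with a minimum mean of 5 FPKM, which removes Klrb1b by construction, and 0 with an adjusted p under 0.05. It was 2 of the 9 in both with p under 0.05 before adjustment whatever the fold change. Over all genes tested, 5.78% reached such a p for PC-La against Laser and 24.3% for SePC-La against PC-La. The share of the lymphocyte genes is near the background in the latter comparison. For SePC-La against Laser the count of lymphocyte genes was 0 under each alternative.

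Same-numbered samples did not deviate together, so that the numbers were not taken as pairs. Over 10853 genes the correlations were 0.086 for Laser and PC-La, -0.428 for Laser and SePC-La, and -0.177 for PC-La and SePC-La. By the negative value of -0.428, Laser replicate 2 and SePC-La replicate 1 tended to deviate in the same direction. This held over all genes tested, so that it is not particular to the lymphocyte genes. With the replicate block the counts of lymphocyte genes stayed at 1, 0 and 1, and those over all genes were 133, 81 and 285 against 140, 74 and 323 without it. With the numbers of SePC-La crossed, an alternative chosen after seeing the data, the counts were 1, 0 and 1, and 183, 75 and 414 over all genes. Without Laser replicate 2 and SePC-La replicate 1, also chosen after seeing the data, they were 1, 0 and 1, and 88, 134 and 299 over all genes.

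Of 456 fold changes of single genes under alternatives, 428 kept their direction and side of the criterion, 4 came to meet it, none was lost and 24 changed sign, 23 of these with a sample left out; the other was Cd8a for SePC-La against Laser, 0.021 with quantile normalization. With each sample left out, PC-La against Laser ranged from -0.056 to 0.85 for Cd3d, from -0.013 to 0.77 for Cd8a and from -0.42 to 0.88 for Gzma. SePC-La against Laser ranged from -0.46 to 0.51 for Cd3d, -0.19 to 0.23 for Cd3e, -0.25 to 0.57 for Cd3g, -0.51 to 0.30 for Cd8a, -0.10 to 0.89 for Nkg7, -1.41 to 0.13 for Gzma, -0.33 to 0.49 for Gzmb, -0.10 to 0.28 for Prf1 and -0.17 to 0.33 for Klrk1. SePC-La against PC-La ranged from -0.86 to 0.11 for Cd3d, -0.42 to 0.004 for Cd3e, -0.76 to 0.004 for Cd3g, -0.95 to 0.04 for Nkg7 and -1.05 to 0.025 for Gzmb. The cause of these changes was not tested. Over all genes, the counts at the criterion ranged from 71 to 664, 60 to 253 and 169 to 584 with each sample left out, the highest without Laser replicate 1, Laser replicate 1 and SePC-La replicate 2. They were 220, 133 and 473 with voom, 197, 129 and 488 with a pseudocount of 0.1, and 68, 46 and 186 with a minimum mean of 5 FPKM. For SePC-La against PC-La the 128 higher and 195 lower genes became 166 and 149 with median-ratio scaling and 164 and 143 with quantile normalization. There were 2 samples per group and 11 to 42 reads on Cd3e, and samples of a group differed, as Cd3d did under Laser (50 and 15 reads). Small changes of the low genes may have gone undetected, and the size that could be found was not tested.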
